A study of Mus musculus with 14 samples.

Results

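Cytosolic ribosomal protein genes were followed across 11 mouse cell lines. Probes were taken by symbol: those whose single gene symbol in the platform's probe annotation begins with Rpl or Rps and a digit, with Rplp, or with Rpsa, without the S6 kinases (Rps6k). The rule used no measured value and found 45 of the 7680 probes, for 43 of 6542 genes with a symbol. Of these, 29 probes (28 genes) belong to the large subunit, its stalk included, and 16 probes (15 genes) to the small subunit. Rpsa and Rplp0 have 2 probes each. All 45 probes had a value on all 14 arrays, so none was lost to a filter.

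Each array compared total RNA of 1 line, in Cy5, with the Stratagene mouse reference RNA, a commercial pool of mouse cell line RNA, in Cy3. The series title asks what single lines contribute to that pool. Arrays were run in duplicate for 3 lines (fibroblast, mammary tumor, myeloma) and once for 8 (embryo fibroblast, kidney, liver, macrophage, myoblast, skin, T-cell lymphoma, testis). The labels give no strain, treatment, passage or culture for any line, name each line only by its tissue or tumor, and describe all of them a second time as primary tissue. Nothing in them marks duplicate arrays as independent cultures, and the p-values therefore reflect variation from array to array that could be purely technical. A lone array has no replicate check of its own. The reference on the first mammary tumor array has the added letters MRR in its name, and its identity with the other references is not stated.

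A cytosolic ribosome joins a small subunit, which reads the mRNA, to a large subunit, which forms the peptide bond, and nearly every ribosomal protein is present once in each ribosome. The acidic stalk proteins, which recruit translation factors to the large subunit, are the exception and are present in several copies. Most ribosomal protein mRNAs begin with a run of pyrimidines at the cap, the terminal oligopyrimidine tract, through which growth signals acting on mTOR control their translation.

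Starts of 6 members are shown, 5 of them with a pyrimidine run, in capitals, at or close to the listed start. Each gives 25 bases before and 15 bases after the RefSeq start site on the coding strand of GRCm38.p6. In Rpl12 the run begins just after the start site, not at it. Rpsa and Rpl12 are shown because they had the widest ranges among genes with a listed promoter, Rps6 because it had one of the narrowest, and the other 3 as clear examples of the tract.
Rpsa, chr9:120127741-120127780, plus strand: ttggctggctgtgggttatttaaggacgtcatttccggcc
Rpl12, chr2:32961687-32961726, plus strand: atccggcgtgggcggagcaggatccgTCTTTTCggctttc
Rps6, chr4:86857353-86857392, minus strand: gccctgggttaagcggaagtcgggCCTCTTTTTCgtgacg
Rpl28, chr7:4792940-4792979, plus strand: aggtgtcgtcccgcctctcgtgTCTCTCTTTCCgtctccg
Rpl38, chr11:114668555-114668594, plus strand: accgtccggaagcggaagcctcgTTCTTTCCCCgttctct
Rps18, chr17:33955651-33955690, minus strand: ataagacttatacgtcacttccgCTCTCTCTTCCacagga

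Promoters of 34 of the 43 genes were matched by symbol. A run of at least 6 pyrimidines on the coding strand, touching the 5 bases on either side of the start, was found in 14 of these 34 (41.2%), against 23.1% of 17491 protein-coding genes. The Rpsa window held no such run at its listed start. The letters CGGAAG on either strand, the core that ETS-family factors bind, were in 23 of 34 windows of 300 bases (67.6%), against 23.5% of all. AAGATGG, the core of the YY1 motif, was in 7 (20.6%) against 7.18% of all, and TATAAA was in 5 (14.7%) against 14.8%. The last 2 were searched on both strands as well. CGGAAG and AAGATGG can overlap, since the first ends in the letters that begin the second, and a match describes these windows only.

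Values were taken as log2 ratios of line over pool. Neither their base nor their direction is stated, and folds rest on base 2. The direction was checked on the lines' own marker genes: all 9 myoblast markers, 6 of 6 macrophage markers, 8 of 8 myeloma markers and 6 of 7 T-cell markers were higher in their line than in the mean of the other 10. The labels of other lines were less well borne out: 1 of 6 liver marker probes (Afp, Apoa1, Hnf4a and Ttr were not higher), 3 of 6 skin markers and 5 of 9 fibroblast marker probes in the embryo fibroblast line were higher. Higher marker probes numbered 4 of 6 in kidney, 6 of 9 in testis, 8 of 11 in mammary tumor and 8 of 9 in fibroblast. A difference of at least 1 was reached by 1, 2, 0 and 6 of these. The embryo fibroblast and kidney arrays stood apart in level, with medians over all tested features of −0.50 and −0.40, while the other lines lay between −0.15 and 0.13. Values of these 2 lines are given as deposited, not centred on that median, unless stated. An array ratio sets a line against the pool for 1 probe, so levels of different genes are not compared, and less of one mRNA cannot be told apart from more of the others.

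The spread of the 45 probes over lines was near that of all features, with a smaller share of line values far from 0. The SD over lines had a median of 0.57 among them, against 0.62 over all 7423 tested features, and ranged from 0.30 for Rpl27 to 1.27 for the first Rpsa probe. Of the 495 line values of the members, 64 (12.9%) were at least 1 away from 0, which is 2-fold, against 19.9% over all features. Yet 33 of the 45 probes reached that distance in at least 1 line, a share of 73.3% against 75.1%.

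Skin had the highest ribosomal protein ratios and the T-cell lymphoma, testis and kidney lines the lowest. The median of the 45 probes was 0.65 in skin, 0.27 in myoblast, 0.22 in embryo fibroblast, 0.21 in myeloma, 0.17 in fibroblast and 0.01 in liver. It was −0.11 in macrophage, −0.15 in mammary tumor, −0.44 in kidney, −0.51 in testis and −0.54 in T-cell lymphoma. On the paired arrays the median was −0.30 and −0.05 for mammary tumor, −0.07 and 0.32 for fibroblast and 0.08 and 0.24 for myeloma. This gave a pooled SD of 0.20 for a single array. A difference between lines carries the spread of both, so the order of neighbouring lines was not settled by these values. The widest steps between neighbours were those below skin and below mammary tumor.

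Against the median of all features on the same lines the order changed at both ends. Embryo fibroblast was then highest, at 0.72 above it, followed by skin at 0.52, myoblast at 0.34, fibroblast at 0.29 and myeloma at 0.23. T-cell lymphoma lay 0.52 below, testis 0.36 below and mammary tumor 0.20 below, whereas kidney, at 0.04 below, lay close to all other genes. Members above the median of all features numbered 39 of 45 in skin, 37 in myoblast, 36 in embryo fibroblast, 35 in fibroblast, 31 in myeloma, 26 in liver, 20 in macrophage, 19 in kidney, 16 in testis, 13 in mammary tumor and 11 in T-cell lymphoma, where the background is 49.9% or 50% by construction. Single members had their highest line most often in skin (17) and embryo fibroblast (11), and their lowest in testis (14) and T-cell lymphoma (13).

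**Figure D1:**
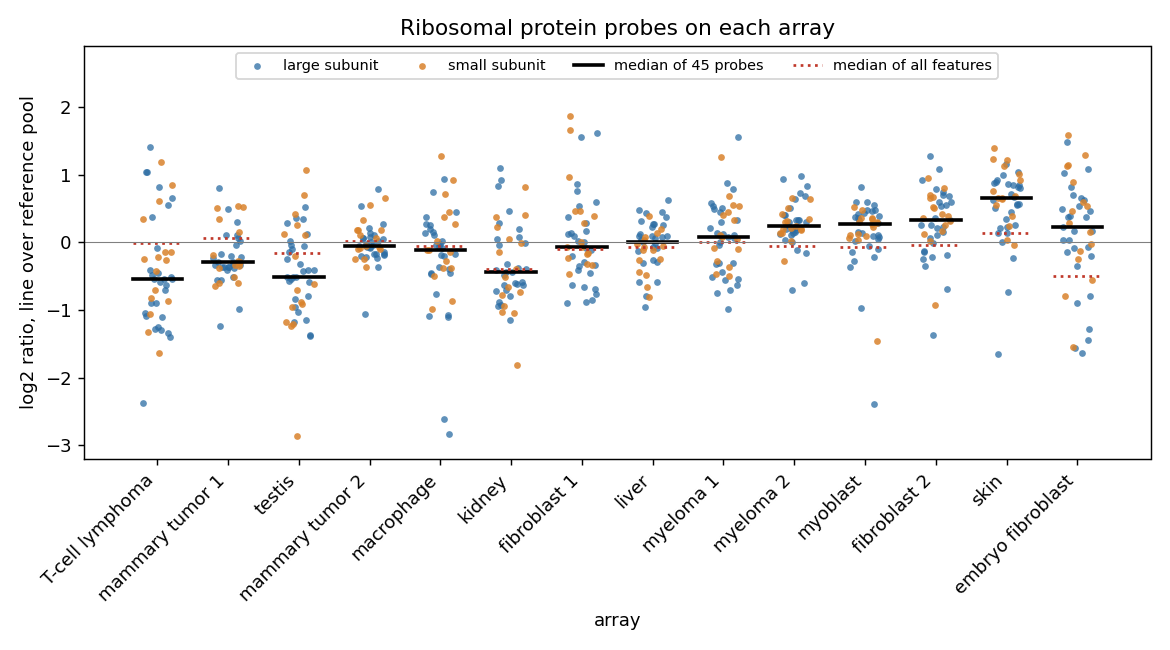
Each point is the log2 ratio of line over pool of 1 of 45 ribosomal protein probes on 1 of 14 arrays, ordered by the distance between the members' median (black bar) and the median of all features (dotted bar). Blue points are large-subunit and orange points small-subunit probes, and the skin array, with a median of 0.65, has the highest black bar while T-cell lymphoma, at −0.54, has the lowest.

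Both subunits had their highest median in skin, but their lowest lines differed: T-cell lymphoma for the large subunit and testis for the small one. In skin the large-subunit median was 0.57 and the small-subunit median 0.67, and in myoblast they were 0.16 and 0.27. In T-cell lymphoma they were −0.55 and −0.25, in testis −0.42 and −0.67, and in liver 0.08 and −0.09.

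**Figure D2:**
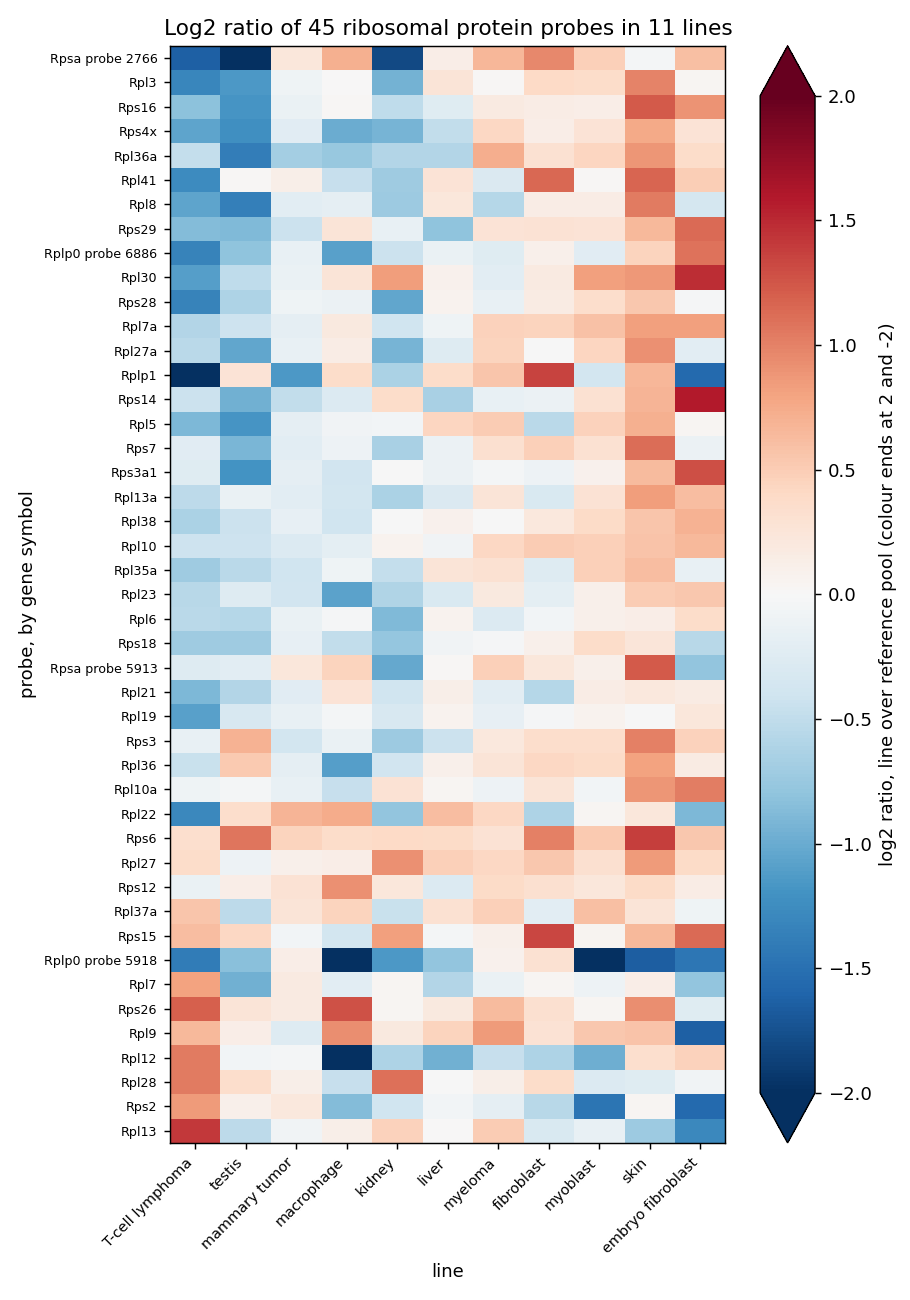
Colour gives the log2 ratio of line over pool for the 45 probes (rows, by gene symbol) in the 11 lines (columns), from blue at −2 to red at 2, with the arrays of paired lines averaged. Red is commonest in the skin column and blue in the testis and T-cell lymphoma columns, while Rps6 is above 0 in all 11 lines.

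A limma F test asked which probes differ among the lines by more than the arrays of 1 line differ. It called 2 of the 45 members, the first Rpsa probe (adjusted p = 0.0242) and Rplp1 (adjusted p = 0.0374), at a Benjamini-Hochberg adjusted p under 0.05. This is 4.44% of the members, against 8.0% of all features (594 of 7423). At an unadjusted p under 0.05 it called 6 members, against 27.7% of all features. With the replicate number as a block, 4 members were called, Rpl36a and Rpl12 being added, against 1741 of all features (23.5%). No member was called when either mammary tumor array or either myeloma array was left out. Of all features, 1.38% and 1.35% were then called without mammary tumor array 1 and 2. The share was 1.95% and 0.0% without myeloma array 1 and 2.

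Each line was also compared with the mean of the other 10. Rplp1 was called higher in fibroblast, where 1.23% of all features were called (0.835% higher). It was called lower in T-cell lymphoma, where 4.58% were called (2.36% lower). The first Rpsa probe was called lower in testis, where 0.35% were called (0.0674% lower). No member was called in embryo fibroblast (2.21% of all features called), kidney (0.0135%), liver (0.0135%), macrophage (4.07%), mammary tumor (0.862%), myeloma (6.7%), myoblast (0.795%) or skin (0.0%). In limma at an unadjusted p under 0.05 the members numbered 13 in embryo fibroblast, 12 in T-cell lymphoma, 11 each in skin and testis, 4 each in fibroblast and myeloma, 3 each in kidney and macrophage, 2 each in mammary tumor and myoblast and 0 in liver. Over all features that share was 21.7% in embryo fibroblast, 23.4% in T-cell lymphoma, 8.11% in skin, 11.9% in testis and between 8.19% and 22.5% in the other lines. The 11 members in skin were all higher, among them Rpl8, Rps16, Rps7 and Rpl3, and the 11 in testis were all lower, among them Rpl36a, Rps3a1 and Rps16. With the replicate block the calls over all lines went from 3 to 18, which is 3.64% of the members' 495 line values, against 6.27% over all features. Of these, 8 were in embryo fibroblast, where 12.6% of all features were then called, and 4 in T-cell lymphoma, where 12.9% were.

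Rpsa encodes a small-subunit protein near the mRNA exit that also serves as a laminin receptor at the cell surface, and its first probe (number 2766) had the largest SD over lines of all members. It read −2.86 in testis, −1.81 in kidney and −1.63 in T-cell lymphoma. It read −0.04 in skin, 0.14 in liver, 0.48 in myoblast, 0.60 in embryo fibroblast and 0.71 in macrophage. Its paired arrays read 0.15 and 0.32 for mammary tumor, 0.96 and 0.95 for fibroblast and 0.68 and 0.65 for myeloma. Thus 3 lines lay far below the pool and apart from the other 8, and the arrays of a pair lay close together. Its difference in testis from the other lines was −2.89 ± 0.33 (SE) on the log2 scale (7.41-fold lower, limma adjusted p = 0.0491). The values for T-cell lymphoma (−1.54, adjusted p = 0.0517 in limma), kidney (−1.73, adjusted p = 0.0968) and fibroblast (1.31, adjusted p = 0.0645) did not pass, but did pass in 10 of 16, 2 of 15 and 4 of 16 alternatives, with adjusted p from 0.0219 to 0.338, 0.0378 to 0.408 and 0.0269 to 0.235 in limma. The replicate block called the kidney and T-cell lymphoma values and, with single arrays at number 2, the fibroblast value too. The call in testis was lost without fibroblast array 1, without either mammary tumor array or without either myeloma array (limma adjusted p = 0.0534 to 0.145), and with scale normalization or trend and robust moderation (0.0641 and 0.0638).

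The other Rpsa probe (number 5913) did not show the same low lines. It read −1.02 in kidney but −0.26 in T-cell lymphoma and −0.21 in testis, and 1.22 in skin. Over the 11 lines the r between the probes was 0.44, with the same sign in 9 lines and the widest gap in testis, where the first probe was lower by 2.65. Rpsa has many near-identical processed copies in the mouse genome, so which transcripts each probe binds is uncertain. The probes next to the first Rpsa probe in number did not follow it, with r between −0.24 and −0.07 over 14 arrays. The second Rpsa probe, in contrast, correlated with its neighbours in number, Eef1a1 (0.77) and Muc1 (0.75).

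Rplp1 encodes an acidic stalk protein. It read 1.61 and 1.09 on the fibroblast arrays, 0.79 and 0.32 for myeloma, and −1.24 and −1.06 for mammary tumor. Among single arrays it read 0.66 in skin, 0.37 in liver and macrophage alike, 0.28 in testis, −0.37 in myoblast, −0.63 in kidney, −1.56 in embryo fibroblast and −2.38 in T-cell lymphoma. The fibroblast and myeloma pairs lay wholly above the mammary tumor pair, and the range over line means was 13.3-fold. Rplp1 was 1.73 ± 0.28 (SE) higher in fibroblast than in the other lines (limma adjusted p = 0.0484) while its difference in T-cell lymphoma was −2.37 ± 0.39 (5.17-fold lower, limma adjusted p = 0.0251). The fibroblast call was lost when any 1 of the 6 paired arrays was left out (limma adjusted p = 0.0788 to 0.133) with scale normalization (0.115), with the probe number trend removed (0.066) and without the embryo fibroblast and kidney lines (0.0592). The T-cell lymphoma call was lost without either mammary tumor array (0.0691 and 0.0726 in limma) and with quantile (0.0735) or scale normalization (0.169). In T-cell lymphoma both Rplp1 and the first Rpsa probe were far below the ribosomal protein median of −0.54. In testis they parted, since Rplp1 was above the pool there.

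Rplp0 anchors the stalk and is often used as a reference gene, and the probes with its symbol gave different pictures. The annotation gives them different gene identifiers, and that of probe 5918 was not in the RefSeq table. Whether probe 5918 measures the same gene as probe 6886 is therefore uncertain. Probe 5918 read −0.52 and 0.78 on the mammary tumor arrays, −0.66 and 1.28 on the fibroblast arrays and −0.75 and 0.93 on the myeloma arrays, so the first array of each pair was below the pool and the second above it. On single arrays it was below the pool throughout, from −2.61 in macrophage and −2.40 in myoblast to −0.79 in liver. Probe 6886 read −1.34 in T-cell lymphoma, −1.09 in macrophage, −0.22 in myoblast and 1.09 in embryo fibroblast. The r between the Rplp0 probes over 11 lines was 0.19, and in embryo fibroblast they were 2.53 apart. Each correlated, to differing degrees, with elongation factor probes close to it in number. Over 14 arrays probe 5918 had an r of 0.93 with the Eef2 probe at 5917 and 0.58 with that at 5919. Probe 6886 had 0.93 with Eef1a1 at 6884, 0.90 with Eef2 at 6885 and 0.33 with Eef1a2 at 6888. Other genes close in number ranged likewise. Probe 5918 had 0.66 with Gtpbp1 and 0.13 with Nans, and probe 6886 had 0.76 with Gstm1. In macrophage the Eef2 probe at 5917 read −3.33 and in myoblast −2.42. Positions on the array were not used, and what part they have in this likeness was not tested. Neither Rplp0 probe passed the F test (limma adjusted p = 0.368 and 0.332). With the replicate block probe 5918 was called in macrophage. With single arrays at number 2 in that block it passed the F test (limma adjusted p = 0.0132) and was called in 5 lines (fibroblast, macrophage, mammary tumor, myeloma and myoblast).

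**Figure D3:**
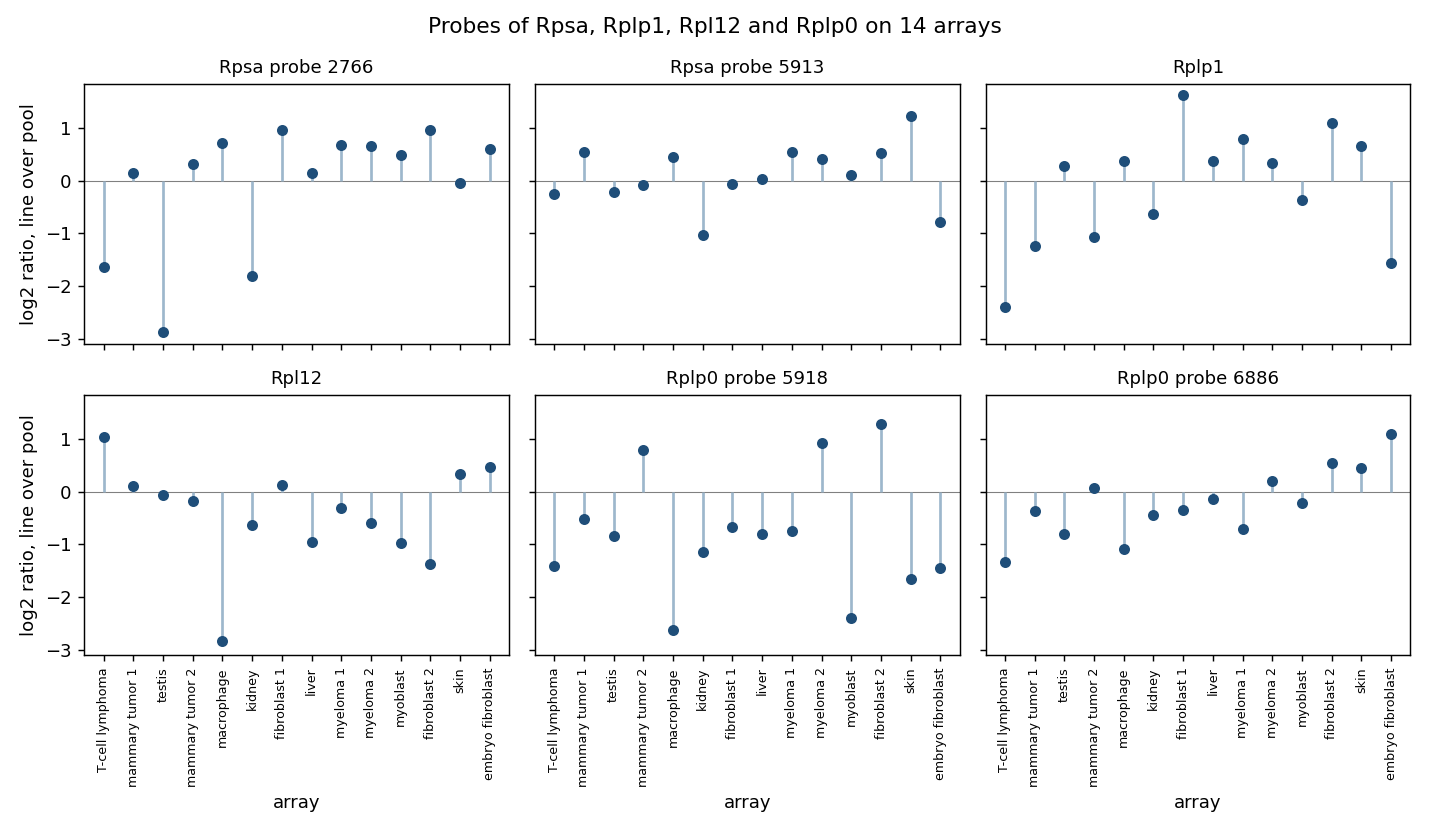
Each panel gives the log2 ratio of line over pool of 1 probe on each of the 14 arrays, for both Rpsa probes, Rplp1, Rpl12 and both Rplp0 probes. Rpsa probe 2766 drops to −2.86 in testis while Rpsa probe 5913 reads −0.21 there, and Rplp0 probe 5918 is below 0 on the first and above 0 on the second array of each pair.

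Rpl12, at the base of the stalk, had the widest range of all members, 14.6-fold. It read −2.83 in macrophage, −0.98 in myoblast, −0.96 in liver and −0.62 in kidney, and 1.04 in T-cell lymphoma, 0.46 in embryo fibroblast and 0.34 in skin. Its fibroblast arrays read 0.12 and −1.37, on either side of the pool. Macrophage stood apart from all other lines at the low end. The difference in macrophage was −2.64 ± 0.54 (SE), with a limma adjusted p of 0.0503, just outside the threshold. It passed in 7 of 16 alternatives, both replicate blocks and either fibroblast array left out among them (limma adjusted p from 0.0124 to 0.269). Its unadjusted F test p over all lines was 0.0471.

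Other large-subunit members split in T-cell lymphoma. Rpl13, Rpl12 and Rpl7, whose probe numbers lie close together (5591 to 5594), had their highest line there, at 1.41, 1.04 and 0.81. Members from other stretches of probe numbers were low. Rpl3, which lies near the site of peptide bond formation, read −1.30 in T-cell lymphoma. Rpl41, the smallest ribosomal protein, read −1.25 and Rpl30 −1.11. Rpl22, which developing alpha-beta T cells need in mice, also had its lowest value there, −1.28, and was 1.36 ± 0.37 (SE) lower than in the other lines (limma adjusted p = 0.0916). Its other low values were −0.90 in embryo fibroblast, −0.79 in kidney and −0.88 and −0.36 on the fibroblast arrays, and it was above the pool in the other 7 lines, with 0.80 and 0.54 for mammary tumor. Rpl36a was lowest in testis, at −1.38, and highest in skin, at 0.89, with 0.49 and 0.97 for myeloma and −0.98 and −0.37 for mammary tumor. Rpl9 read −1.64 in embryo fibroblast and 1.55 and 0.15 on the myeloma arrays, so that the myeloma arrays disagreed. Rpl10, which joins the large subunit late in its assembly, and Rpl27 had narrow ranges, 2.09-fold and 2.03-fold, and Rpl27 was above the pool in 10 of 11 lines.

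Among small-subunit members, Rps6, the substrate of the S6 kinases downstream of mTOR, stayed above the pool in every line. It ranged from 0.29 in myeloma to 1.39 in skin, with 1.07 in testis. Its fibroblast arrays read 1.65 and 0.35, so its 2.13-fold range over lines was narrower than the gap within that pair. Rps26, which touches the mRNA ahead of the start codon, was above the pool in 10 of 11 lines, with 1.27 in macrophage, 1.19 in T-cell lymphoma and 0.93 in skin, and read 1.26 and 0.02 for myeloma. Rps2, at the mRNA entry channel, read −1.55 in embryo fibroblast, −1.46 in myoblast and 0.85 in T-cell lymphoma. Rps4x, the X-linked copy of its gene, read −1.23 in testis, −1.06 in T-cell lymphoma, −0.99 in macrophage and 0.76 in skin. Rps29 read −0.88 in testis, −0.87 in T-cell lymphoma and 1.14 in embryo fibroblast. Rps14 and Rps3a1 had their highest line in embryo fibroblast, at 1.58 and 1.29, against a median of all features there of −0.50. The difference of Rps14 in that line was 1.75 ± 0.41 (SE), with a limma adjusted p of 0.0797. The remaining small-subunit probes had ranges from 2.20-fold (Rps18) to 5.33-fold (Rps16).

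The macrophage, myeloma and T-cell lymphoma lines were compared with the other 8 on line means. Of all features 3.22% were called and none of the 45 members, of which 4 had an unadjusted limma p under 0.05, against 19.8% of all features. The median difference of the members was −0.21, against 0.11 for all features. Rpl13 was 0.998 ± 0.38 (SE) higher in the blood-cell lines (limma adjusted p = 0.169), Rps26 0.82 higher and Rpl9 0.78 higher. Rpl41 was lower, at −0.98, as were Rplp0 probe 6886 at −0.88 and Rpl30 at −0.80. The blood-cell lines did not share a ribosomal protein level, since the member medians were 0.21 in myeloma, −0.11 in macrophage and −0.54 in T-cell lymphoma.

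The fibroblast, embryo fibroblast and myoblast lines were compared with the mammary tumor, liver, testis, kidney and skin lines in the same way. No feature was called (0.0%), and 1 member, Rps2, had an unadjusted limma p under 0.05, against 6.26% of all features. The median difference was 0.26 for the members and −0.16 for all features. The first Rpsa probe was 1.55 ± 0.74 (SE) higher in the mesenchymal lines (limma adjusted p = 0.817), Rps29 0.89 and Rpl36a 0.83 higher. Rps2 was lower, at −1.17 ± 0.40 (limma adjusted p = 0.761), then Rpl22 at −0.71 and Rpl9 at −0.48.

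Other genes of protein synthesis were given from fixed lists, each as the median difference of a line from the other 10 minus that of all features. The elongation factors (8 probes of 5 genes), which move tRNA and ribosome along the mRNA, had −1.17 in T-cell lymphoma, −0.71 in macrophage and −0.67 in testis, and 0.73 in fibroblast, 0.65 in embryo fibroblast and 0.49 in skin. The ribosomal proteins had −0.60, −0.12 and −0.48, and 0.21, 0.61 and 0.48 in the same lines. Both were thus below the median of all features in T-cell lymphoma and testis and above it in fibroblast, embryo fibroblast and skin. They parted in kidney and liver, with 0.31 and 0.14 for the elongation factors beside −0.16 and −0.05 for the ribosomal proteins. All 8 elongation factor probes were numbered within or close to stretches of members, at 3018, 5912 to 5919 and 6884 to 6890. Eef2 and Eef1a1 have several of these probes each. What part spot position has in the likeness of the lists was not tested. Initiation factors (18 probes) had −0.47 in T-cell lymphoma and 0.68 in embryo fibroblast, and ribosome assembly factors (30 probes) had −0.30 and 0.43. In other lines the assembly factors parted from the ribosomal proteins. They had −0.34 in myoblast, −0.12 in fibroblast and −0.14 in myeloma, where the ribosomal proteins had 0.31, 0.21 and 0.11. In kidney, liver and macrophage they had 0.40, 0.30 and 0.12, beside −0.16, −0.05 and −0.12. Initiation factors also parted in kidney (0.25) and liver (0.085). Mitochondrial ribosomal proteins (9 probes) had −0.29 in T-cell lymphoma, 0.15 in embryo fibroblast and 0.44 in macrophage. Fau, the ribosomal protein gene outside the symbol rule that was measured, read 0.99 in embryo fibroblast, −0.20 in skin and 0.05 in T-cell lymphoma, and so did not share the members' extremes in the latter lines.

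No feature of these lists was called in the limma F test, against 8.0% of all features. At an unadjusted p under 0.05 it called 1 elongation factor probe, 3 initiation factors, 4 assembly factors, 6 of 17 proliferation and Myc genes and 0 mitochondrial ribosomal proteins, against 27.7% of all features. In single lines, Eif4ebp1, the repressor of cap-dependent translation that mTOR switches off, fell in myeloma, at −1.28 and −1.38 on the arrays (difference −1.90 ± 0.30, limma adjusted p = 0.0143). Myc, the transcription factor that raises ribosome production, fell in macrophage (−2.45 ± 0.50, limma adjusted p = 0.0499). The proliferation genes Mki67 (1.73 ± 0.25, limma adjusted p = 0.0101) and Top2a (1.31 ± 0.28, limma adjusted p = 0.0438) rose in myeloma. The list as a whole did not, since the median difference of the 17 proliferation and Myc genes there was −0.04, against 0.11 for all features. Without either myeloma array the calls of Eif4ebp1 (limma adjusted p = 0.0941 and 0.152), Mki67 (0.0632 and 0.129) and Top2a (0.173 and 0.28) were lost. Those of Top2a and Myc were also lost without either mammary tumor array (0.0997 to 0.125) and with quantile or scale normalization, and that of Myc without either myeloma array (0.0906 and 0.094). Top2a was also lost with array medians centred (0.0523) and with the image run as a random block (0.0604), and Myc without the embryo fibroblast and kidney lines (0.0597).

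**Figure D4:**
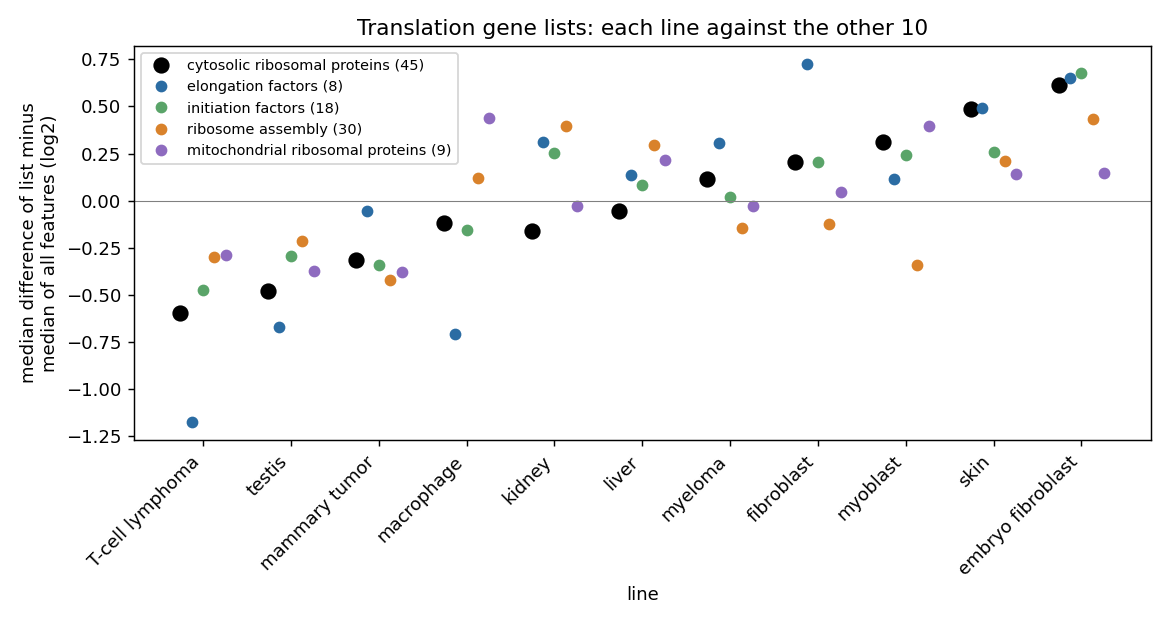
Points give, for each of the 11 lines, the median log2 difference from the other 10 lines over the features of a list minus the same median over all features, with the number of features of each list in the legend. In T-cell lymphoma the elongation factors lie at −1.17 and the ribosomal proteins at −0.60.

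Members correlated with each other, most of all those with probe numbers near each other. Only probe numbers were used, not positions on the array. Over the 990 pairs of members the r over 11 lines had a median of 0.34, with 71.0% of pairs above 0, against 0.08 and 57.3% over all features. The 97 pairs within 50 probe numbers of each other had a median r of 0.69, and pairs farther apart 0.30. With a running median along the probe number taken from each array the median r was 0.27, at 0.42 for near and 0.25 for far pairs. Rpl7a (0.68), Rps16 (0.66) and Rps4x (0.61) had the highest median r with the other members. The points share arrays, the pool and probe number order, so no p is given.

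Many members had probe numbers close together, and their distance from other probes nearby in number differed between stretches. In embryo fibroblast the 8 members at probe numbers 6734 to 6886 had a median of 1.11, while other probes within 50 numbers had −0.23, and the 9 members at 3001 to 3013 had 0.22 beside −0.50. The 5 members at 5440 to 5594 went the other way, with −0.80 beside −0.39. In T-cell lymphoma these 5, Rpl7, Rpl12 and Rpl13 among them, had 0.85 beside −0.10, whereas the 8 at 5907 to 5922 had −0.80 beside 0.08. In skin the members were above their neighbours at 5907 to 5922 (0.96 beside 0.24) and at 6734 to 6886 (0.67 beside 0.27). The running median of probes nearby in number was also taken away. The median of all 45 was then 0.64 in embryo fibroblast, 0.48 in skin, 0.19 in fibroblast, −0.16 in testis and −0.32 in T-cell lymphoma. The signs were kept in these 5 lines, while the distances were smaller than against all features in every one of them, most of all in testis (0.36 there) and T-cell lymphoma (0.52).

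**Figure D5:**
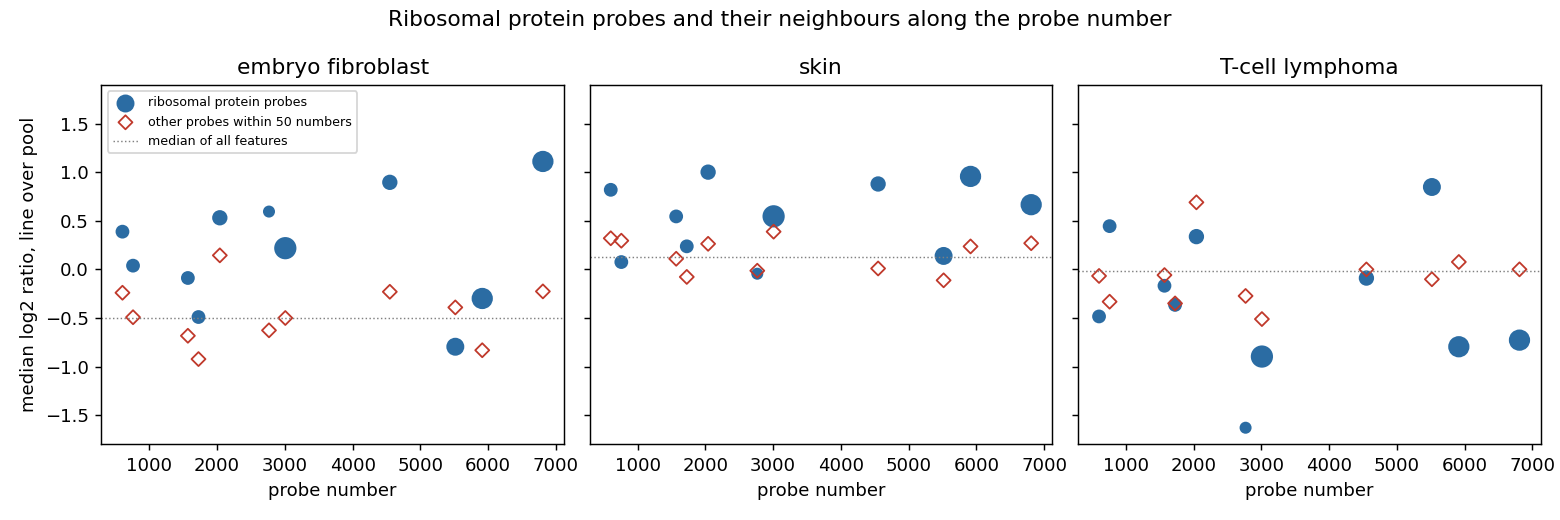
Median log2 ratio of line over pool of ribosomal protein probes (filled, larger with more probes) and of other probes within 50 numbers (open diamonds), by probe number, in embryo fibroblast, skin and T-cell lymphoma, with the median of all features dotted. In embryo fibroblast the members at the highest numbers reach 1.11 beside neighbours at −0.23, and in T-cell lymphoma the 5 members at 5440 to 5594 lie at 0.85 while most other stretches are below 0.

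The image numbers in the labels fall into 5 runs, of which 3 held more than 1 line. Within the run of 4 arrays the member median ranged from −0.54 to 0.22 and within the run of 6 arrays from −0.51 to 0.32, so lines differed within a run. The skin array and the first mammary tumor array were each a run of their own, and for skin, which has no other array, line and run cannot be told apart. The mammary tumor arrays fell in different runs, as did the fibroblast arrays, while the myeloma arrays shared a run. The spread within the mammary tumor and fibroblast pairs, used in the tests, therefore includes any difference between runs.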

How the data were processed

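The deposited value table holds 1 processed log2 ratio per spot and array, as the authors made it. What base, direction, background correction, normalization or filter lies behind it is not stated. Signal over background is therefore unknown, and precision is limited by how many arrays there are. Empty cells made up 0.393% (423 of 107520). Averaging Gapdh's 80 spots left 7601 features, of which 7423 were measured in every line and tested. Probes were named from the platform annotation (6835 with 1 symbol, 4 with several, 841 unlisted), and 43 of the 45 member probes had their gene identifier in a RefSeq table of GRCm38.p6.

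Tests used limma 3.58.1 in R 4.3.3 (lmFit, eBayes, two-sided, Benjamini-Hochberg over all features): an F test over 11 lines, each line against the equal-weight mean of the other 10, and 2 lineage comparisons on line means. Residual degrees of freedom were 3, all from duplicate arrays, with 3.75 more from moderation, and lone arrays were assumed to vary likewise. The fits were tested on simulated data. Same-numbered arrays of different pairs deviated together (r of deviations from the line means 0.539, 0.381 and 0.333), so a replicate block was fitted. Lines with 1 array carry no number and were set to 1, or to 2 in an added alternative. Named members were those called, the 3 highest and 3 lowest of each lineage comparison, the 3 widest and 3 narrowest ranges, genes with several probes, stalk genes and Rpsa, and parents of measured or unmeasured paralogs. Other members named in the text were chosen after their values were seen. The members and lists were chosen with earlier results of these data known. Plots used matplotlib 3.10.9 (Python 3.11.15).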

Additional observations from a re-analysis of the deposited data

Results flagged for a closer look

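Rpl9 read −1.64 in embryo fibroblast, the lowest of the 8 lines that are not blood-cell lines, with the next line at −0.25. The median of all features on the embryo fibroblast array was −0.50. The gap was 0.627 of the whole range. Rps26 read 0.93 in skin, the highest of the 5 organ lines, with the next at 0.25, a gap of 0.763 of the range. Both gaps exceeded Dixon's 95% critical value. Such checks numbered 44, and chance alone passes about 1 in 20 where members are picked without regard to their values. Rpl9 and Rps26 were named for extreme lineage differences in these same data, so that rate need not hold for them.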

How the results depend on the processing

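The F test called 2 members, against 8.0% of all features. It called 0 with scale normalization (0.35% of all features), 4 with the replicate block (23.5%) and 4 with that block and single arrays at number 2 (22.9%). Leaving out 1 array gave 0 to 3, with 0.0% to 10.1% of all features called. The 3 calls over single lines became 5 with array medians centred, 5 with features on all 14 arrays, 5 with the probe number trend removed, 6 with trend and robust moderation, 6 with the image run as a random block, 1 with scale normalization, 18 with the replicate block and 28 with that block and single arrays at number 2. As shares of the line values, the last 2 were 3.64% and 5.66%, against 6.27% and 6.35% over all features, where the 3 calls were 0.606% against 1.89%. The share was 1.01% with array medians centred (1.88% over all features), with features on all 14 arrays (2.0%) and with the trend removed (2.8%). It was 1.21% with trend and robust moderation (1.9%) and with the image run block (2.29%), and 0.202% with scale normalization (0.77%). Leaving out 1 array gave 0 to 7: dropping a fibroblast array gave 7, a myeloma array 1 and a mammary tumor array 0. The 7 were 1.41% of the members' line values, against 2.9% and 2.85% over all features without fibroblast array 1 and 2. Over all features the share was 1.0% and 0.699% without myeloma array 1 and 2. It was 0.779% and 0.71% without mammary tumor array 1 and 2. The F test calls in the related gene lists, 0, became 1 with quantile normalization, 1 with trend and robust moderation, 2 with the image run block, 3 with the trend removed, 8 with the replicate block, 13 with that block at number 2, and 0 to 2 with 1 array left out. Over all features the F test called 6.76% with quantile normalization, 7.93% with trend and robust moderation and 12.9% with the image run block. It called 10.5% with the trend removed, and 23.5% and 22.9% with the 2 replicate blocks. The lineage comparisons called 0 members under every alternative run for them. Of all features they then called 1.5% to 4.7% for the blood-cell lines and at most 0.0135% for the mesenchymal lines. The embryo fibroblast median of 0.219 became 0.728 after centring, 0.544 after quantile and 0.631 after scale normalization and 0.640 with the trend removed. The kidney median of −0.437 became −0.033, −0.126, −0.029 and −0.068. The mammary tumor median of −0.149 became −0.377 after quantile normalization, and with the trend removed the T-cell lymphoma median of −0.537 became −0.318 and the testis median of −0.511 became −0.158. The causes of these changes were not tested. The trend removal, the leaving out of embryo fibroblast and kidney, and the block at number 2 were chosen after seeing the data. Other background corrections and a filter on dim spots were not run, since the values hold no intensities.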
